A study of Mus musculus with 17 samples.

Results

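Chromatin accessibility was examined at 10 genes that carry phosphate, amino acids, sodium, protons and bicarbonate across the proximal tubule, out of 21938 protein-coding genes annotated in the mouse. The genes were taken by name, with no measured value in the rule. They were the phosphate transporters Slc34a1 and Slc34a3, the amino acid transporters and subunits Slc3a1, Slc7a9, Slc6a19, Slc6a18, Slc7a7 and Slc7a8, the sodium-proton exchanger Slc9a3 and the sodium bicarbonate cotransporter Slc4a4. ATAC-seq, in which a transposase cuts and tags open DNA, had been run on kidneys of 17 male mice, with 20000 cells per library. The Ctrl group held 5 wild-type C57BL/6 mice given saline. The Case group held 6 mice of the strain BKS.Cg-Dock7m +/+ Leprdb/J that carried the diabetic db/db genotype and received saline. In the Dapa group were 6 mice of that genotype and strain dosed by gavage with dapagliflozin at 1 mg/kg per day. The drug blocks glucose reabsorption through SGLT2. Saline and drug were both given for 6 weeks from 8 weeks of age. Genotype, diabetes and strain background change together between Ctrl and both db/db groups and cannot be told apart. The mice bear the labels 1 to 5 in Ctrl, 1 to 6 in Case and 7 to 12 in Dapa.

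The proximal tubule takes back most of the phosphate, amino acids and bicarbonate that the glomerulus filters. Sodium-coupled carriers in the brush border bring solutes into the cell, and other carriers in the basolateral membrane pass them on to the blood. Slc34a1 (NaPi-IIa) and Slc34a3 (NaPi-IIc) move phosphate with sodium. Slc3a1 (rBAT) and Slc7a9 (b0,+AT) form the exchanger for cystine and dibasic amino acids, and loss of either causes cystinuria. Slc6a19 (B0AT1) carries neutral amino acids and is the transporter lost in Hartnup disorder, while its neighbour Slc6a18 (B0AT3) carries small neutral amino acids. Slc7a7 (y+LAT1) and Slc7a8 (LAT2) work on the basolateral side. Slc9a3 (NHE3) secretes protons into the lumen, and Slc4a4 (NBCe1) returns bicarbonate to the blood.

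Each library was deposited as a list of summits, the points of highest signal within called peaks, with 1 score for each summit. The complete lists held 37402 to 56659 summits in Ctrl, 29702 to 51292 in Case and 32846 to 49442 in Dapa. All lists were shortened to the 29702 summits with the highest scores, the length of the shortest list. Within each shortened list a summit was given a rank percentile, so that 100 stands for the highest score of that mouse. A gene's window ran from 10 kb upstream of its start to its end on mm10, with the GENCODE annotation. The strongest percentile is that of the highest-ranked summit in the window, and is 0 where the window holds none. Percentiles are ranks within a mouse, so they do not show absolute accessibility. Read depth is unknown, and no counting interval can be given. In whole kidney, fewer cells of a type and less open chromatin per cell cannot be told apart.

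The libraries held the proximal tubule. Of 12 marker genes of that segment, 11 to 12 had a summit in each Ctrl mouse, 7 to 11 in Case and 10 to 12 in Dapa. The lowest value came from Case 3, which had a summit at 7 of 12 proximal tubule markers and at 4 of 6 endothelial markers. Endothelial markers numbered 0 to 2 of 6 in Ctrl, 1 to 4 in Case and 0 to 4 in Dapa. Fibroblast and smooth muscle markers numbered 0 to 1 of 5 in Ctrl, 0 to 2 in Case and 0 to 4 in Dapa. Leukocyte markers numbered 3 to 5 of 8 in Ctrl and in Case, and 4 to 5 in Dapa. Thick limb and distal tubule markers numbered 3 to 4 of 8 in Ctrl and 2 to 5 in both db/db groups, collecting duct markers 2 to 3 of 7 in Ctrl and 3 to 4 in both db/db groups, and podocyte markers 1 to 4 of 5 in Ctrl and in Case and 2 to 3 in Dapa. Among defining markers, Ptprc of leukocytes, Cldn16 of the thick limb, Avpr2 and Atp6v1g3 of the collecting duct and Col1a2 of fibroblasts had no summit in any equal-length list. These counts changed with the length of the lists. In the complete lists endothelial markers numbered 2 to 5 in Ctrl, 1 to 4 in Case and 2 to 4 in Dapa, and fibroblast and smooth muscle markers 1 to 4, 2 to 3 and 1 to 5, so the lower counts of Ctrl were seen in the shortened lists alone. In the same complete lists Ctrl had more thick limb and distal tubule markers (4 to 6, against 2 to 5 in both db/db groups) and podocyte markers (3 to 5, against 2 to 4 in both). The part of the marker counts in the values below was not tested.

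All 10 transport genes were marked by accessible chromatin in nearly every mouse. In Ctrl and in Dapa each of the 10 had a summit in every mouse, and in Case 8 of the 10 did. Slc34a3 lacked a summit in Case 2 and Slc7a8 lacked one in Case 3, in the equal-length and in the complete lists alike. The equal-length lists already held 95.3% of the complete list of Case 2 and 99.5% of that of Case 3. The complete lists could thus add little for these mice. Over all protein-coding genes, 62.8 ± 0.505% (SD, n = 5) had a summit in Ctrl, 61.1 ± 0.876% (n = 6) in Case and 61.8 ± 1.21% (n = 6) in Dapa. With 1 mouse at most lacking a summit, no member could reach a p of 0.05 by Fisher's exact test, so presence was not testable for any of the 10. The same two-sided test passed an unadjusted 0.05 at 8% of testable genes in Case against Ctrl, 1.1% in Dapa against Case, 5.78% in Dapa against Ctrl and 7.18% in all db/db mice against Ctrl. Within 1 kb of an annotated transcription start, 8 to 10 of the 10 genes had a summit in a Ctrl mouse, 6 to 10 in a Case mouse and 7 to 9 in a Dapa mouse. The lowest count, 6, was that of Case 3. Over all protein-coding genes the share with a summit near a start was also lower in db/db mice, at 51.6 ± 0.440% in Ctrl, 47.8 ± 1.61% in Case and 48.5 ± 1.69% in Dapa.

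The 10 genes covered a wide range of ranks. The highest level was that of Slc6a19, with a median strongest percentile of 96.2 over the 17 mice, above 94.6% of the 17125 protein-coding genes with a summit in at least 2 libraries. Slc4a4 followed at 91.5 and Slc34a1 at 90.6. Slc6a18 stood at 77.7, Slc7a9 at 72.7, Slc34a3 at 69.3, Slc7a7 at 68.1 and Slc3a1 at 65.7. Slc9a3 at 58.6 and Slc7a8 at 58.3 were the lowest. The median of the 10 levels was 71.0, against 67.6 over all genes. Across mice Slc6a19 ranged from 91.1 to 98.8, Slc4a4 from 73.5 to 95.4 and Slc34a1 from 79.3 to 97.9, so the last 2 overlapped throughout most of their range. Slc7a9 ranged from 25.0 to 87.4 and Slc3a1 from 21.9 to 85.7, and the 7 genes from Slc6a18 down overlapped one another. A longer window offers more chances of a high summit, and the windows ran from 15467 bp at Slc34a3 to 362836 bp at Slc4a4, against a median of 27425 bp over all genes.

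**Figure D1:**
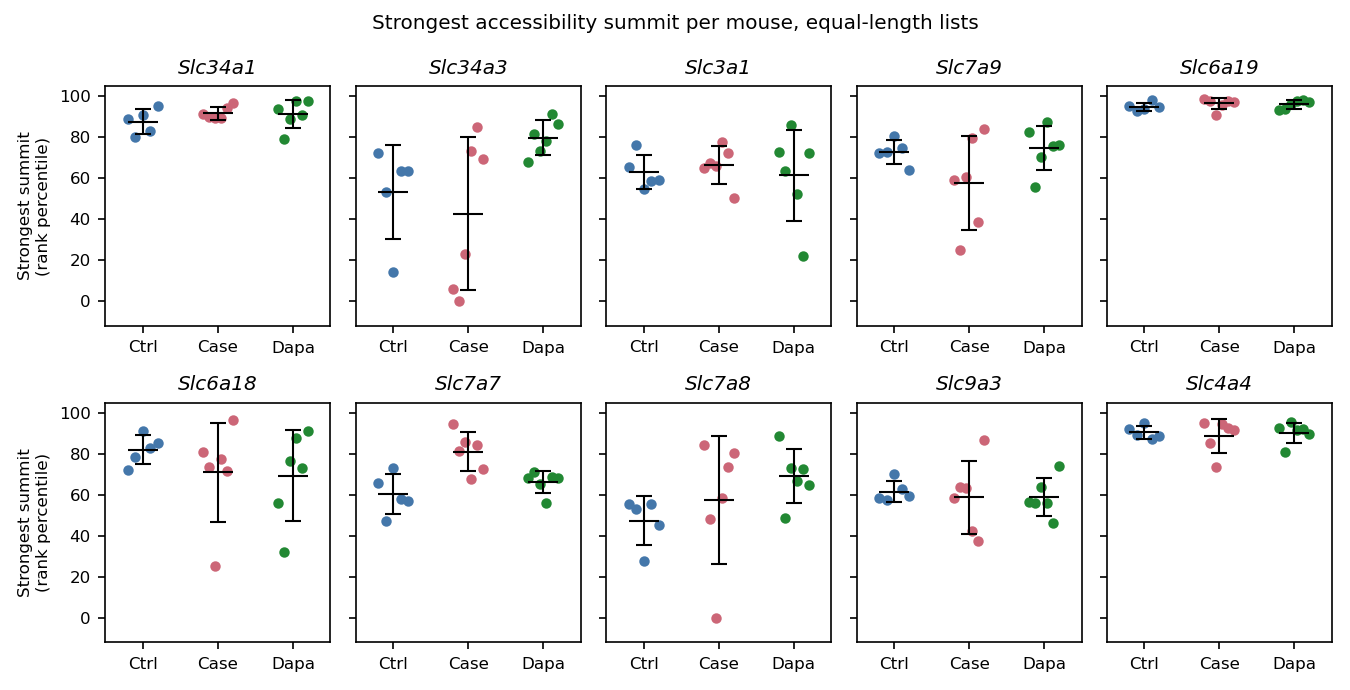
Strongest rank percentile in the window of each of the 10 genes (y axis, 0 where no summit lay in the window) for every mouse, with the group mean and SD as black bars (5 Ctrl, 6 Case, 6 Dapa). Slc6a19 stayed between 91.1 and 98.8 in all mice, while Slc34a3 reached from 0 to 85.0 in Case and stayed between 68.0 and 91.5 in Dapa.

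Summits of different mice that lay close together were joined into consensus regions, each seen in at least 2 libraries. The mean percentile of a region is taken over all mice of the set named, with 0 for a mouse that lacks the region. The 10 windows held 63 regions, of which 40 lay in introns, 16 outside the gene, 4 in untranslated exons, 2 in exons of other kinds and 1 in a coding exon. Of the 63, 21 lay within 1 kb of a start of the same gene. In all 17 libraries 7 regions recurred, or 11.1%, against 15.0% of the 52457 regions of the genome. These 7 belonged to Slc34a1, Slc7a9, Slc6a19, Slc7a7 and Slc4a4, the last 2 genes with 2 regions each. The sequences of 6 of these are shown because their regions were open in every kidney. Each is read 5′ to 3′ along the strand of its gene from RefSeq GRCm38.p6, with annotated exons left out, and capitals mark the 9 bases centred on the median summit. The Slc7a9 sequence ends before the gene start, and in some mice every summit of that region lay downstream of the start.
Slc34a1 upstream region, chr13:55391728-55391978, plus strand: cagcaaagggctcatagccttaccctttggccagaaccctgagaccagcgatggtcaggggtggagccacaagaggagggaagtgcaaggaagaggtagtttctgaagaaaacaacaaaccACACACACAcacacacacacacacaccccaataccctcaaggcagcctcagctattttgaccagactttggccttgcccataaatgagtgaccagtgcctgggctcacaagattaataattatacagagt
Slc7a9 start, chr7:35448583-35448795, plus strand: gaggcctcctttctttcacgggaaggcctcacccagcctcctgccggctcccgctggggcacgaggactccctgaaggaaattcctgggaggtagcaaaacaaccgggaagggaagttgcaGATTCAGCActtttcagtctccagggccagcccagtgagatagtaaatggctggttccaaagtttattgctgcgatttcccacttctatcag
Slc6a19 start, chr13:73692637-73692754, minus strand, ending 8 bases before the median summit: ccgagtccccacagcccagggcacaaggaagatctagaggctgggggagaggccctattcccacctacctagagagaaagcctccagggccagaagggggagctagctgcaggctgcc
Slc7a7 internal start, chr14:54410217-54410385, minus strand: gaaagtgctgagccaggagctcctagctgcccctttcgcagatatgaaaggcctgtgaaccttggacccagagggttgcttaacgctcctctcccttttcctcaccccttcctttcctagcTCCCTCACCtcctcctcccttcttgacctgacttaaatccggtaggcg
Slc4a4 downstream start, chr5:89027809-89027965, plus strand: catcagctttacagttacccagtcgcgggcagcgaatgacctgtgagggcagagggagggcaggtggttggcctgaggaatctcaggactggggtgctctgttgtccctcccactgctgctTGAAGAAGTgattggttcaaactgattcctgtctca
Slc4a4 intron, chr5:88929777-88930027, plus strand: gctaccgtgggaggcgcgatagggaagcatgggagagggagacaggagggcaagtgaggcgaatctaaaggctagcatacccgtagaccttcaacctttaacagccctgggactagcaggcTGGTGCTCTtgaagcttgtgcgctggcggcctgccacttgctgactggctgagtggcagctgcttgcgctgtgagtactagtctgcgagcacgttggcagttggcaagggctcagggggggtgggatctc

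The letters of 3 motifs were searched on both strands in 201 bases around each median summit. The HNF4 letters CAAAGTNCA were in 2 of the 63 regions, 3.17%, against 3.92% of all regions. One of these lay 52 bp upstream of the Slc3a1 start and the other in an intron of Slc9a3. The HNF1 letters GTTAATNAT were in 4 of 63, 6.35%, against 2.51% of all regions, in 2 introns of Slc3a1 and in 1 intron each of Slc7a7 and Slc4a4. The AP-1 letters TGANTCA were in 6 of 63, 9.52%, against 6.82%. None of the 3 was found in the 6 printed sequences. These matches describe letters, and binding was not measured.

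Slc34a1 (ENSMUSG00000021490.11, chr13, 55398187 to 55415592) was strongly marked in every group. The strongest percentile was 89.2, 80.1, 90.6, 82.9 and 95.4 in Ctrl mice 1 to 5. It ran from 89.2 through a median of 90.4 to 96.8 in Case, and from 79.3 through 92.2 to 97.9 in Dapa, so all groups overlapped. In 14 of 17 mice this summit lay in the region 6334 bp upstream of the gene start, printed above, which had a mean percentile of 89.2 over all mice. A second upstream region, 7371 bp from the start, was present in 16 of 17 mice with a mean of 61.9 over all 17. The region at the RefSeq start, 82 bp before it, was present in 16 of 17 mice and was weaker, at 55.2 over all 17. The region near the 3′ end, in 16 mice, lies in a coding exon of Pfn3 and 146 bp from the start of that gene.

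Slc34a3 (ENSMUSG00000006469.13, chr2, 25228898 to 25234364), the second sodium-phosphate cotransporter of the brush border, had the widest range of the members in Case. Its strongest percentile was 72.4, 53.3, 14.3, 63.5 and 63.7 in Ctrl mice 1 to 5. In Case mice 1 to 6 it was 5.98, 0, 23.3, 73.3, 85.0 and 69.3. In Dapa mice 7 to 12 it was 68.0, 81.6, 73.2, 78.2, 91.5 and 86.4. Case split into 3 mice at or below 23.3 and 3 at or above 69.3, whereas all 6 Dapa mice were at or above 68.0. The mean was 37.0 percentile points higher in Dapa than in Case, 79.8 ± 8.57 (SD, n = 6) against 42.8 ± 37.4 (n = 6), with an unadjusted p of 0.0455 and an adjusted p of 1 by the two-sided exact permutation test. It was 26.4 points higher than in Ctrl, where it was 53.4 ± 22.9 (n = 5), and only Dapa 7 did not exceed the highest Ctrl value (exact permutation test, unadjusted p = 0.00433, adjusted p = 0.246). Neither passed the adjusted threshold of 0.05. In the complete lists the Dapa to Ctrl difference was smaller, at 15.1 points (exact permutation test, unadjusted p = 0.0173), and the Dapa to Case difference was 34.8 points (unadjusted p = 0.0368). When each mouse was left out in turn, the unadjusted p of Dapa against Case exceeded 0.05 without Case 1, 2 or 3 or any Dapa mouse. It reached 0.104 (exact permutation test), while that of Dapa against Ctrl was at most 0.0190. Without Ctrl 3, which stood at 14.3, the Dapa to Ctrl difference fell from 26.4 to 16.6 points.

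At Slc34a3 a single region decided these values. It lay 658 bp upstream of the annotated start, in an untranslated exon of the neighbour Rnf224 and 1667 bp from the start of that gene, and it gave the strongest summit in 14 of 16 mice with any. It was absent from Case 2 and Case 3 and present in the other 15 mice. The other region, 6570 bp upstream in an intron of Cysrt1 and 946 bp from its start, was present in 3, 4 and 5 mice of the same groups with a mean percentile of 29.8 over all 17 mice, absent ones counted as 0. Which of the genes the upstream summit serves was not measured.

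The remaining comparisons of phosphate transport had large overlaps. Slc34a1 differed by 4.07 points between Case and Ctrl and by 3.74 points between Dapa and Ctrl, with SDs of 3.09 to 6.95 within groups. The mean of Slc34a3 differed by -10.7 points between Case and Ctrl (42.8 against 53.4), which is below the SD of either group. Its direction was not stable, at 4.67 points in lists of the 14851 highest-scoring summits and 0 on mean ranks over mice.

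Slc3a1 (ENSMUSG00000024131.8, chr17, 85028376 to 85064236), the heavy chain of the cystine exchanger, had no dominant summit. Its 9 regions included none present in all mice, and its strongest summit lay in 6 different regions across the 17 mice. The strongest percentile was 65.7, 76.2, 54.9, 58.8 and 59.1 in Ctrl. It ran from 50.3 through 66.9 to 77.6 in Case and from 21.9 through 67.9 to 85.7 in Dapa, around nearly the same medians. The region 52 bp upstream of the start was present in 2 Ctrl, 5 Case and 5 Dapa mice. A summit within 1 kb of any Slc3a1 start, a wider measure, was present in 3, 5 and 5 mice in the equal-length lists and in 5, 6 and 5 in the complete lists. Intronic regions at 12725, 14294 and 15234 bp into the gene recurred in 14, 13 and 16 of 17 mice. An intronic region at 2420 bp was seen in 0 Ctrl, 1 Case and 3 Dapa mice, too few for a call.

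Slc7a9 (ENSMUSG00000030492.16, chr7, 35448796 to 35466036), the light chain of the same exchanger, depended on its promoter. The promoter region spanned the gene start, with summits spread over 744 bp and a median summit 88 bp upstream. The region was present in all 17 mice and gave the strongest summit in 16 of them. Relative to the start, these summits lay at -213, -137, -141, -254 and 260 bp in Ctrl. They lay at 296, 357, 350, 259, -216 and 228 bp in Case. In Dapa mice other than Dapa 8 they lay at -88, 223, 259, 257 and -109 bp. Negative values are upstream, and the difference in position between groups was not tested. The strongest percentile of the window was 72.3, 72.7, 80.6, 74.8 and 64.1 in Ctrl. In Case it was 59.1, 25.0, 60.5, 79.8, 38.6 and 84.3, with 4 of 6 mice below every Ctrl mouse. In Dapa it was 82.5, 55.9, 70.5, 87.4, 75.9 and 76.3, where the value of Dapa 8 came from an intronic region and its promoter region stood at 53.4. The means were 72.9 ± 5.91 (SD, n = 5), 57.9 ± 23.0 (n = 6) and 74.8 ± 10.9 (n = 6). No comparison of Slc7a9 reached an unadjusted p of 0.05.

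Slc6a19 (ENSMUSG00000021565.16, chr13, 73679745 to 73704865) had the region with the highest mean percentile of the 63. Its summit lay 12236 bp inside the longest gene model and 7 bp from the RefSeq start, which is a downstream one. It was the strongest summit of the window in all 17 mice, with a mean percentile of 95.9. The values were 95.2, 92.9, 93.9, 98.0 and 94.5 in Ctrl. They ran from 91.1 through 97.5 to 98.8 in Case and from 93.4 through 96.6 to 98.1 in Dapa. The group means of 94.9, 96.5 and 96.0 differed by less than the SDs of 1.94, 2.80 and 2.07. A second open start was weaker. Its region, 4114 bp inside the longest model and 29 bp from the start of another transcript, was present in 15 of 17 mice, and its mean over all 17 was 48.7 with absent ones counted as 0.

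**Figure D2:**
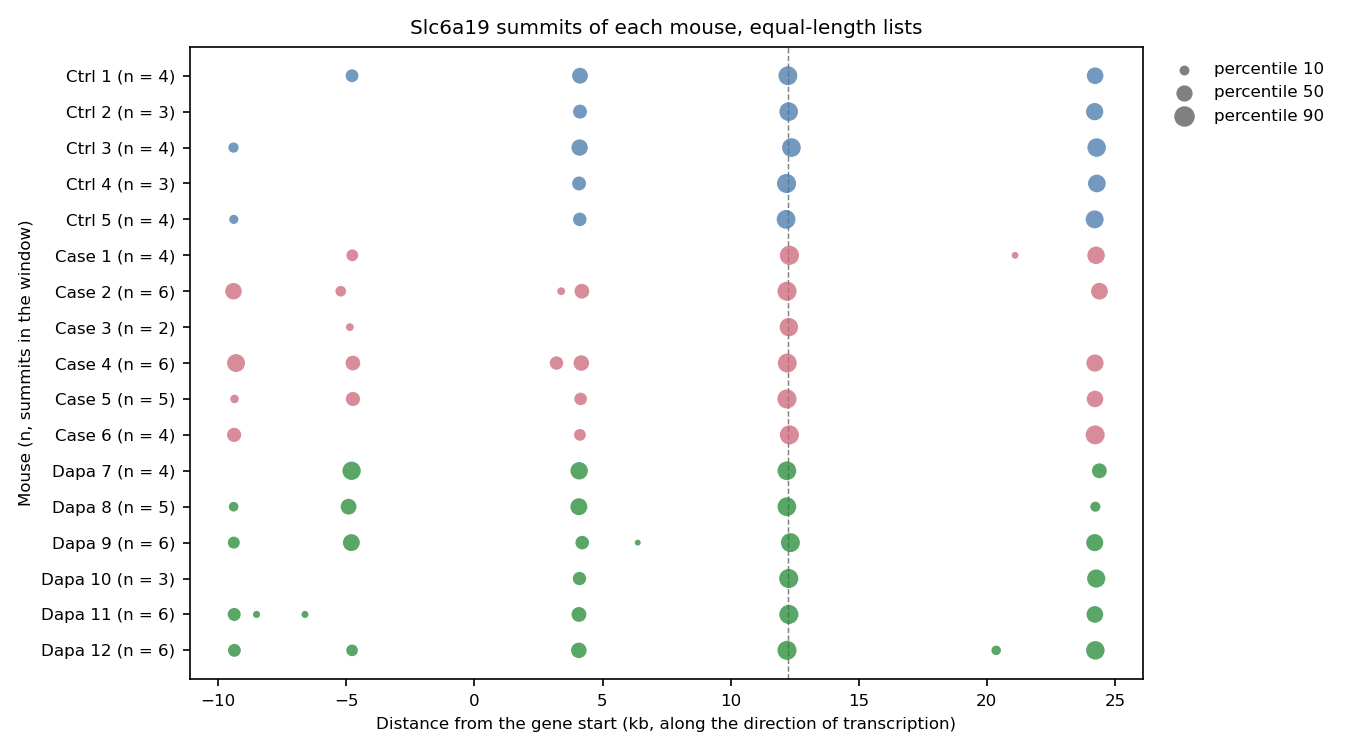
Summits in the Slc6a19 window of each mouse against distance from the gene start in kb, with point area set by rank percentile and dashed lines at RefSeq starts. A summit at 12.2 kb recurs in all 17 mice, and one near the 3′ end recurs in 16.

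The 3′ end of Slc6a19 carried the region that the neighbour Slc6a18 shares. This region, chr13 from 73680218 to 73680905, lies in an untranslated exon of Slc6a19 and 2609 bp upstream of Slc6a18. It was absent from Case 3 and present in the other 16 mice, with a mean of 71.5 over all 17. It was the strongest summit of the Slc6a18 window in 15 of 17 mice. The start of Slc6a18 itself (ENSMUSG00000021612.15, chr13, 73661752 to 73678023) had a region 61 bp upstream in 3 Ctrl, 2 Case and 0 Dapa mice, with means of 11.8, 5.87 and 0. The strongest percentile of Slc6a18 was 72.0, 78.6, 91.2, 82.9 and 85.4 in Ctrl, and its high level is thus that of the shared region. It ran from 25.3 through 75.7 to 96.3 in Case and from 32.0 through 74.6 to 91.1 in Dapa. The db/db mean differed from that of Ctrl by -11.9 points (70.1 ± 22.0, n = 12, against 82.0 ± 7.25, n = 5) and did not reach an unadjusted p of 0.05.

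Slc7a7 (ENSMUSG00000000958.10, chr14, 54369442 to 54417780), which exports dibasic amino acids to the blood and is mutated in lysinuric protein intolerance, had its highest mean in Case. The strongest percentile was 65.8, 47.1, 73.0, 58.0 and 57.0 in Ctrl mice 1 to 5. It was 94.5, 81.1, 85.7, 67.8, 84.4 and 72.7 in Case mice 1 to 6. It was 68.0, 71.2, 65.2, 56.1, 68.6 and 68.1 in Dapa mice 7 to 12. In Case, 4 of 6 mice lay above every Ctrl mouse, and the groups overlapped at 67.8 to 73.0. The difference between Case and Ctrl was 20.9 points, 81.0 ± 9.56 (SD, n = 6) against 60.2 ± 9.78 (n = 5), with an unadjusted p of 0.0108 and an adjusted p of 0.280 by the exact permutation test. Dapa, at 66.2 ± 5.32 (n = 6), differed from Case by -14.8 points (exact permutation test, unadjusted p = 0.0108, adjusted p = 1). The 12 db/db mice together were 13.4 points higher than Ctrl (exact permutation test, unadjusted p = 0.0299, adjusted p = 0.320). These comparisons share mice and are not independent of each other. In the complete lists they shrank to 9.93, -9.39 and 5.24 points (exact permutation test, unadjusted p = 0.0952, 0.0996 and 0.297), so none passed there.

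The Slc7a7 values came from several summits. The internal start, 57 bp upstream of a RefSeq start and printed above, was open in all 17 mice. Its percentile was 65.8, 40.8, 37.7, 44.5 and 21.7 in Ctrl, and 94.5, 55.3, 26.0, 67.8, 84.4 and 51.2 in Case. In Dapa it was 40.7, 5.15, 65.2, 56.1, 31.3 and 48.0. The group means were 42.1 ± 15.8, 63.2 ± 24.6 and 41.1 ± 21.2. The other region in all mice lay in an intron at 30031 bp, with means of 52.2 ± 19.9, 63.3 ± 19.1 and 63.7 ± 8.10. In Case 3 the strongest summit was instead one 9080 bp upstream of Slc7a7 and 49 bp from the start of Mrpl52, a mitochondrial ribosomal protein gene. With windows from 2 kb upstream, which leave that summit out, the Case to Ctrl difference was 11.0 points (exact permutation test, unadjusted p = 0.377), while without Case 3 and with the full window it was 19.9 points (exact permutation test, unadjusted p = 0.0238). In the shorter windows the Dapa to Case difference was -5.01 points (p = 0.665 in the exact permutation test) and the db/db to Ctrl difference 8.53 points (p = 0.308).

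**Figure D3:**
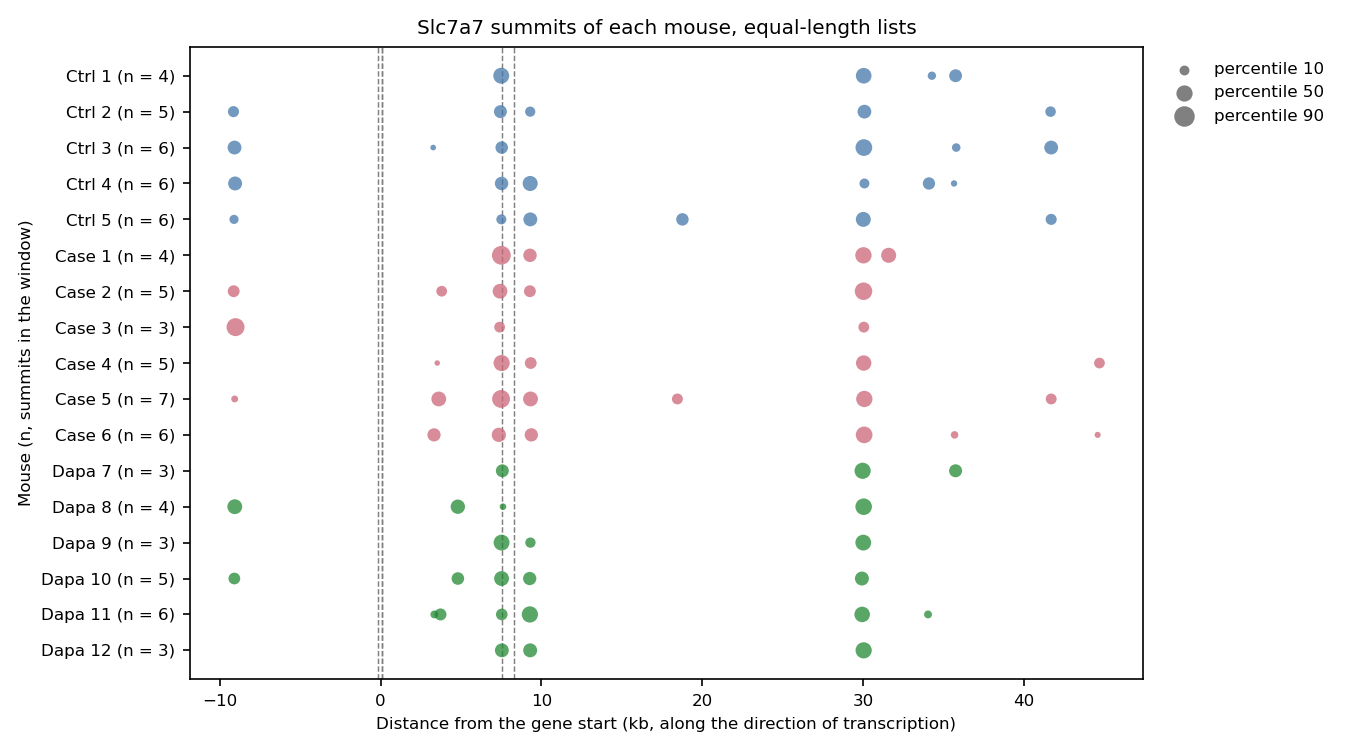
Summits in the Slc7a7 window of each mouse against distance from the gene start in kb, with point area set by rank percentile and dashed lines at RefSeq starts. The summits at 7.5 and 30.0 kb recur in all 17 mice, and the one at 9.1 kb upstream, at the Mrpl52 start, in 9.

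Slc7a8 (ENSMUSG00000022180.7, chr14, 54722209 to 54781946), the light chain of a neutral amino acid exchanger, had the lowest level of the 10. The strongest percentile was 55.7, 53.1, 27.5, 55.5 and 45.1 in Ctrl. In Case it was 84.5, 48.1, 0, 58.3, 73.5 and 80.6, with Case 3 lacking any summit. In Dapa it was 88.6, 48.8, 73.2, 66.7, 72.6 and 64.9, and only Dapa 8 lay within the Ctrl range. Dapa exceeded Ctrl by 21.8 points on average, 69.1 ± 13.0 (SD, n = 6) against 47.4 ± 11.9 (n = 5), with an unadjusted p of 0.0152 and an adjusted p of 0.273 by the exact permutation test. In the complete lists the difference was 11.8 points (exact permutation test, unadjusted p = 0.0628), and within 1 kb of a start it was 12.8 points (p = 0.279). The region behind 7 of the 16 strongest summits lay in an intron 39464 bp into the gene and was missing from Ctrl 5 and Case 3. The start itself, at 10 bp, was open in 2, 3 and 2 mice.

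Slc9a3 (ENSMUSG00000036123.8, chr13, 74121457 to 74169442) was tightly grouped in Ctrl and spread in db/db mice. Its strongest percentile was 58.2, 57.6, 70.0, 62.9 and 59.2 in Ctrl. It ran from 37.6 through 60.9 to 87.0 in Case and from 46.3 through 56.3 to 74.1 in Dapa. The means of 61.6 ± 5.12 (SD, n = 5), 58.7 ± 17.7 (n = 6) and 58.8 ± 9.33 (n = 6) lay within 1 SD of each other. The promoter region 101 bp upstream of the start was present in 5 mice of each group. Its percentile averaged 60.5 ± 6.46 over Ctrl mice, 42.4 ± 22.9 over Case mice and 40.7 ± 22.9 over Dapa mice. An intronic region at 22827 bp was present in all but Case 3, Dapa 9 and Dapa 11, at group means of 54.2, 28.1 and 34.1.

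Slc4a4 (ENSMUSG00000060961.14, chr5, 88886818 to 89239653) was open at its downstream start. That region, 32 bp upstream of the RefSeq start 141 kb inside the longest model, was present in all 17 mice with a mean percentile of 85.3. The region 63 bp upstream of the gene's first start was present in 5 Ctrl, 4 Case and 2 Dapa mice, with a mean of 23.2 over all 17 mice, absent ones counted as 0. The intronic region at 43084 bp, also in all 17 mice, had a mean of 85.1. The strongest percentile of the window was 92.2, 89.4, 95.2, 87.4 and 88.5 in Ctrl. It ran from 73.5 through 92.0 to 95.0 in Case and from 80.8 through 91.7 to 95.4 in Dapa. The group means were 90.5 ± 3.16, 88.7 ± 8.21 and 90.3 ± 4.99.

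The number of summits along Slc4a4 had a lower mean in both db/db groups than in Ctrl. The number of summits in the window was 12, 13, 11, 13 and 8 in Ctrl mice 1 to 5. It was 11, 6, 2, 6, 10 and 8 in Case mice 1 to 6, and 6, 6, 7, 6, 8 and 9 in Dapa mice 7 to 12. In the db/db mice 7 of 12 lay below every Ctrl mouse. This measure was added after the counts had been seen. The difference of db/db mice from Ctrl was -4.32 summits, 7.08 ± 2.35 (SD, n = 12) against 11.4 ± 2.07 (n = 5), with an unadjusted p of 0.00339 and an adjusted p of 0.361 by the exact permutation test. It was -4.23 for Case (exact permutation test, unadjusted p = 0.0368, adjusted p = 0.853) and -4.4 for Dapa (unadjusted p = 0.0108, adjusted p = 0.775). The Case call was lost when any 1 of Ctrl 1, 2, 3 or 4 or Case 2, 3, 4 or 6 was left out, with differences of -4.4 to -3.2 summits and unadjusted p-values of 0.0619 to 0.0794 in the exact permutation test. In lists of the 14851 highest-scoring summits none of the 3 calls remained, the db/db difference being -0.883 summits (exact permutation test, unadjusted p = 0.275), that of Case -1.13 (p = 0.236) and that of Dapa -0.633 (p = 0.578). In the complete lists the differences were larger, at -5.93 summits for db/db mice, -6.6 for Case and -5.27 for Dapa. Their unadjusted p-values were 0.00404, 0.0216 and 0.0173 (exact permutation test), and none passed the adjusted threshold. Complete lists were longer in Ctrl, with means of 45444 summits against 37299 in Case and 40574.5 in Dapa. A longer list can hold more summits per window, and the part of list length in these differences was not tested.

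The intronic regions of Slc4a4 varied in how many mice held them, and those given here were named after their values were seen. A region at 196860 bp was present in 4 of 5 Ctrl mice, 3 Case mice and 1 Dapa mouse. Its percentile was 67.6, 73.8, 51.2, 40.0 and 0 in Ctrl, and its mean was 46.5, 7.86 and 9.84 in the 3 groups. A region at 209680 bp was present in 3, 2 and 0 mice. Regions at 129270 and 331663 bp were each present in every Ctrl mouse, 3 Case mice and 4 Dapa mice. A region at 299312 bp was present in 2 Ctrl, 0 Case and 0 Dapa mice, and one at 180506 bp in 5, 3 and 5. Not every intronic region shared this pattern, since one at 103602 bp was present in 5 mice of each group. One at 74758 bp was present in 5 Ctrl, 3 Case and 6 Dapa mice. None of these regions reached an unadjusted p of 0.05 by Fisher's exact test. Over all regions of the genome the share of mice was lower in db/db mice than in Ctrl at 48.5% and higher at 36.5%.

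**Figure D4:**
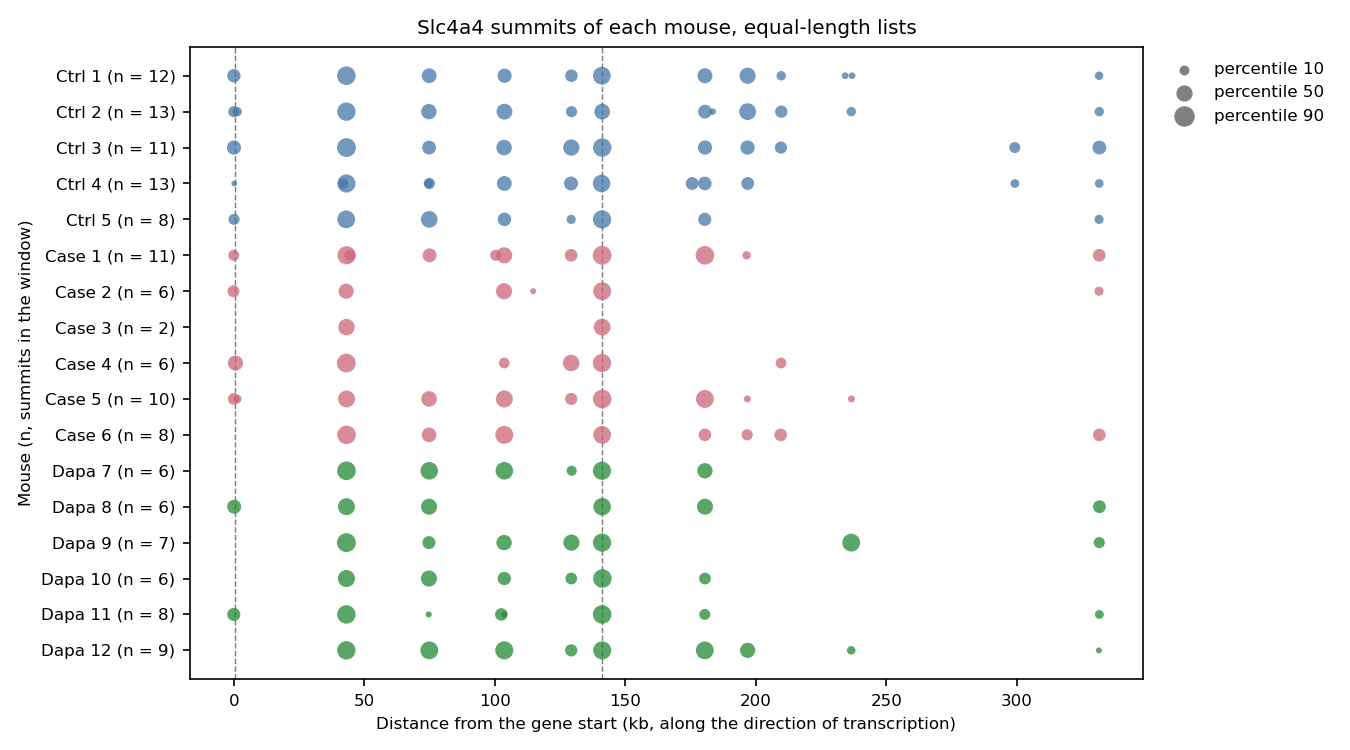
Summits in the Slc4a4 window of each mouse against distance from the gene start in kb, with point area set by rank percentile, dashed lines at the RefSeq starts and the number of summits per mouse in brackets. The columns at 43.1 and 141 kb recur in all 17 mice, while counts are 8 to 13 in Ctrl, 2 to 11 in Case and 6 to 9 in Dapa.

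The members' counts past an unadjusted threshold are given here beside those of all genes. For the strongest percentile, 1 of 10 members passed an unadjusted 0.05 in Case against Ctrl, where 12.4% of 16265 tested genes did. In Dapa against Case it was 2 of 10 against 3.76% of 16607 genes, and those 2, Slc34a3 and Slc7a7, moved in opposite directions. In Dapa against Ctrl it was 2 of 10 against 13.3% of 16053 genes, and in all db/db mice against Ctrl 1 of 10 against 12.9% of 17125 genes. With each mouse left out in turn, these counts ran from 1 to 2 in Case against Ctrl and in Dapa against Case. They stayed at 2 in Dapa against Ctrl and ran from 0 to 2 in all db/db mice against Ctrl. Slc34a1 and Slc6a19 each passed in a repeat of Case against Ctrl, and Slc7a8 passed in all db/db mice without Case 3. No gene of the genome passed an adjusted 0.05 in any of the 4 comparisons by the exact permutation test, the smallest adjusted p being 0.257, 1, 0.246 and 0.0728 in the same order. The smallest unadjusted p that this exact permutation test can give is 0.00216, 0.00216, 0.00216 and 0.000162 for these group sizes. The median difference over the members was -0.138, -0.156, 1.50 and 1.18 points, against -0.946, 0.0861, -0.789 and -0.612 over all genes tested. Over all genes the calls ran mostly lower in db/db mice, with 678 higher and 1342 lower in Case against Ctrl, 806 and 1327 in Dapa against Ctrl and 766 and 1440 in all db/db mice against Ctrl. For the number of summits, the counts of members were 1, 0, 1 and 1 of 10, always Slc4a4, against 4.86%, 0.837%, 4.02% and 6.11% of genes. For region presence, 0 of 63 regions passed an unadjusted 0.05 by Fisher's exact test in any comparison, against 10.3%, 1.18%, 7.87% and 9.32% of testable regions, and 17, 10, 15 and 35 of the 63 were testable. No region of the genome passed an adjusted 0.05 by the same test. The smallest unadjusted p among the 63 was 0.0525, at a Slc7a7 intron region 41688 bp from the start that was open in 3 Ctrl mice, 1 Case mouse and 0 Dapa mice.

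A list of 42 other genes of the same pathways was read in the same way. It held other phosphate carriers and their regulators, other amino acid carriers, and other bicarbonate and acid genes. By the strongest percentile, 4 genes were higher and 1 lower at an unadjusted 0.05 in Case against Ctrl, of 37 tested. In Dapa against Case none of 38 was, and in Dapa against Ctrl 2 were higher and 2 lower of 39. In all db/db mice 3 were higher and 2 lower of 40. The shares over all genes, given above, were 12.4%, 3.76%, 13.3% and 12.9% in the same order, so the list's few calls lie near that background. None passed the adjusted threshold in the exact permutation test. Of the 13 bicarbonate and acid genes, 0 passed the unadjusted threshold in any comparison. Slc38a3, a glutamine carrier of the basolateral membrane, had a summit in all 12 db/db mice and in Ctrl in 2 of 5 (Fisher's exact test, unadjusted p = 0.0147, adjusted p = 0.491). It is named after its values were seen, and in the complete lists it had a summit in all 17 mice, so presence did not differ there. Its strongest percentile in the equal-length lists was 50.7 ± 21.5 (SD) against 13.7 ± 20.2. Slc7a13, a cystine and acidic amino acid carrier that pairs with Slc3a1, was named in the same way. Its percentile was 82.3 ± 2.02 (SD, n = 5) in Ctrl and 33.1 ± 27.1 (n = 12) in db/db mice (exact permutation test, unadjusted p = 0.00178, adjusted p = 0.126). Pth1r, the receptor through which parathyroid hormone lowers phosphate uptake, was likewise named after its values were seen, at 77.4 ± 5.49 in Ctrl and 87.7 ± 7.50 in db/db mice (exact permutation test, unadjusted p = 0.0162, adjusted p = 0.260).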

How the data were processed

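ATAC-seq libraries of 17 mouse kidneys were deposited as summit lists. Per the study's methods, the authors aligned reads to mm10 with Bowtie2, removed duplicates and blacklisted regions, shifted reads for the transposase, and called peaks with MACS2 in each library. The score deposited by the authors is on the −log10 scale of a p-value or a q-value (which one is not given in the sources used here). No library shared more than 0.797% of its summit positions with another. Lists were shortened to 29702 summits, with ties at the end taken in seeded random order (up to 3782 tied summits kept and 3674 left out in a library). Windows used GENCODE M21. Consensus regions joined summits extended by 250 bp and had to occur in at least 2 libraries. Presence was tested with Fisher's exact test and percentiles and summit numbers with two-sided exact permutation tests, each adjusted by Benjamini-Hochberg over all protein-coding genes or all regions that could be tested. Nothing in the sources states a batch. Members, lists and tests were chosen with earlier results of these data known. All 10 members are named, with a p only where it was under 0.05 unadjusted, except where an alternative or the smallest region p is given. Up to 3 regions were named per gene by recurrence and mean rank, and other regions were named after their values were seen. Scripts ran in Python 3.11.15 with NumPy 2.4.6, pandas 2.3.3 and SciPy 1.17.1, and were tested on simulated data. Complete lists, lists of 14851 summits, a score minimum of 5, other windows, other region definitions, ranks and each mouse left out were tried.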

Additional observations from a re-analysis of the deposited data

Results flagged for a closer look

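Of 60 sets of values (10 genes, 3 groups, strongest percentile and number of summits), 6 held a mouse far from the others of its group by Dixon's criterion, where about 1 in 20 sets would by chance. For the strongest percentile, Case 3 was at 25.3 for Slc6a18 while the other Case mice spanned 71.7 to 96.3, and at 91.1 for Slc6a19 against 96.0 to 98.8. Case 3 is also the mouse with summits at 7 of 12 proximal tubule markers. For the number of summits, Slc34a1 had 5 in Case 2 against 4 in each of the others, and 2 in Dapa 10 against 4 to 5. Slc34a3 had 1 summit in Dapa 9 against 2 in the others, and Slc6a18 had 1 in Ctrl 2 against 2 in the others. These differences of 1 or 2 summits come from sets in which nearly all mice had the same count.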

How the results depend on the processing

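The counts of members and of regions past an adjusted 0.05 were 0 in each of the 252 repeats that changed the list, the window, the region definition, the adjustment or the mice, by the same exact tests. Part of these repeats could not have given another count. Window presence was not testable for any member at the main setting, and the replicate block cannot give a p under 0.0625 (exact sign-flip test). Of the 1247 repeats of single values and unadjusted counts, 1157 were classed as unchanged and 90 as moved. Counts were unchanged within 1.5 times, and differences above an unadjusted 0.05 within the replicate spread. On mean ranks the latter were all classed as unchanged. A difference under an unadjusted 0.05 was classed by its direction and the adjusted threshold alone, so it could shrink beyond the replicate spread and still count as unchanged. None of these changed direction. Taking mice left out in turn, the Slc7a7 difference ran from 17.6 to 24.1 points in Case against Ctrl and from -17.5 to -12.2 in Dapa against Case, with an unadjusted p of at most 0.0238 in the exact permutation test. In all db/db mice against Ctrl it ran from 10.2 to 16.7, and the unadjusted p was 0.107 without Ctrl 2, 0.0571 without Ctrl 4 and 0.0621 without Ctrl 5 (exact permutation test). The Slc34a3 difference ran from 28.5 to 45.5 in Dapa against Case and from 16.6 to 31.1 in Dapa against Ctrl, and that of Slc7a8 in Dapa against Ctrl from 16.8 to 25.8. In the complete lists Slc7a7 differed by 9.93 points between Case and Ctrl (exact permutation test, unadjusted p = 0.0952), and at a score of at least 5 by 13.9 (exact permutation test, p = 0.188). For all db/db mice against Ctrl these were 5.24 (p = 0.297) and 5.68 points (p = 0.518) in the exact permutation test. At that score Dapa against Case gave -16.5 points for Slc7a7 (p = 0.102) and 38.1 for Slc34a3 (p = 0.0563), Dapa against Ctrl gave 15.4 points for Slc7a8 (p = 0.167), and Case against Ctrl gave -4.13 Slc4a4 summits (p = 0.0563), again by the exact permutation test. On mean ranks over mice the exact permutation p was 0.0931 for Slc34a3 in Dapa against Case and 0.0637 for Slc7a7 in all db/db mice against Ctrl. After seeing the data, summits at starts of other genes were left out, which gave 11.0 points for Slc7a7 (exact permutation test, p = 0.377). Keeping all tied summits gave an unadjusted p of 0.0584 for the number of Slc4a4 summits in Case against Ctrl. With the replicate block, which pairs Ctrl and Case mice of the same number, 0 members passed and the Slc7a7 difference was 22.5 points (exact sign-flip test, p = 0.0625, the smallest it can give). The numbers are shared only by name, since deviations of same-numbered mice correlated at -0.0391 to 0.0590 over 17125 genes and 1 of the 5 Ctrl mice correlated best with its own number. Depth is unknown, so an absent summit and low depth cannot be told apart.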
